A study of Homo sapiens with 2 samples.

Results

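The neuronal RNA-binding protein genes examined here were 10 genes of 4 families: ELAVL2, ELAVL3 and ELAVL4; NOVA1 and NOVA2; RBFOX1, RBFOX2 and RBFOX3; CELF3 and CELF4. They were chosen by name, with earlier results of these data known. A NeuroD1 peak was counted at a gene when it overlapped the gene body in RefSeq (GRCh38.p14) or lay up to 20 kb from either end. Of the 6183 peaks in the list, 20 met this rule. RBFOX3 held 11 of them, ELAVL3 and RBFOX1 held 3 each, and RBFOX2, CELF3 and CELF4 held 1 each. No peak was called at ELAVL2, ELAVL4, NOVA1 or NOVA2. Thus 6 of the 10 genes were marked by a peak, or 60.0%, with a 95% Clopper-Pearson (exact binomial) interval of 26.2% to 87.8%. By the same rule 29.8% of the 19974 protein-coding genes had one, a share that lies within this interval. Among genes of 0.5 to 2 times the length of each member, the share ran from 29.6% (CELF3) to 60.6% (RBFOX1). Gene bodies alone gave 4 of the 10 genes (16.1% of protein-coding genes), a distance of 3 kb gave 6 (21.4%), and 50 kb gave 7 (40.0%).

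ELAVL, NOVA, RBFOX and CELF proteins bind short motifs in RNA and set how transcripts are spliced, how long they last and how well they are translated. The neuronal ELAVL proteins (HuB, HuC and HuD) bind AU-rich elements and stabilize mRNAs, and they are induced as neural precursors leave the cell cycle. NOVA and RBFOX proteins direct alternative exons of synaptic transcripts, RBFOX3 being the antigen NeuN that marks mature neurons. CELF3 and CELF4 are among the mainly neural members of the CUG-binding CELF family. NeuroD1 is a proneural basic helix-loop-helix transcription factor that binds E-boxes, with the general form CANNTG, together with E proteins.

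IMR-32 is a neuroblastoma cell line with amplified MYCN, used here in its wild-type state, and it is a single tumor-derived line rather than normal neurons. The series holds 1 ChIP library, made with an antibody labelled as NeuroD1, and 1 input library, which was not analysed here. The study describes the experiment as NeuroD1 ChIP-seq as well, although the text of its ChIP-seq methods names an H3K27Ac antibody. There was no replicate, so no difference could be tested and all intervals below cover counting error only. Fold enrichment is the ChIP pileup at the summit over the local background, each with 1 added. The ChIP reads at a summit and the local background were worked back from both deposited measures of each peak, its enrichment and its −log10 p, with 1 read taken as 0.98 units of pileup. Over all peaks the median fold enrichment was 6.79, the median summit held 17 reads, and 33.8% of peaks had the lowest common background of 1.04. The total reads of the library are not given in the peak list.

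The promoter windows of these genes, which run from 250 bases before to 50 bases after an annotated start, were taken from RefSeq (GRCh38.p14), and 8 of the 10 genes matched, with 36 windows. ELAVL3 and RBFOX2 had no entry. Over all genes, 2921 of 35116 windows overlapped a peak. The only one of the 36 windows here that overlapped a peak was that of CELF3. It is shown with a window of ELAVL4 and one of ELAVL2, both far from any peak, and with the RBFOX3 window nearest to a peak. Capitals mark an E-box of the form CAGCTG, which reads the same on both strands. They also mark the form CAGATG, searched on both strands and seen as CATCTG when it lies on the other one.
CELF3 (chr1:151716754-151717053, minus strand): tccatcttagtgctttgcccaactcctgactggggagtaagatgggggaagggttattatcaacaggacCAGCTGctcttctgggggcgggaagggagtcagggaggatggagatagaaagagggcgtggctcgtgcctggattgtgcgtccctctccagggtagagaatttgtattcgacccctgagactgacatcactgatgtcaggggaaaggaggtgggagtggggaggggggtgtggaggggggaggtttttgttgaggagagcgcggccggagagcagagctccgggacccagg
ELAVL4 (chr1:50105981-50106280, plus strand): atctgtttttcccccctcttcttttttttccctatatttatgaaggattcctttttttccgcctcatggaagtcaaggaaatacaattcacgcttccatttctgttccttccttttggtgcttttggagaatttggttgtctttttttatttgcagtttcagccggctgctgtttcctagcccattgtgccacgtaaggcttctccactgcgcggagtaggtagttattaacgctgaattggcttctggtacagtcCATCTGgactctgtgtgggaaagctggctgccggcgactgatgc
ELAVL2 (chr9:23826191-23826490, minus strand): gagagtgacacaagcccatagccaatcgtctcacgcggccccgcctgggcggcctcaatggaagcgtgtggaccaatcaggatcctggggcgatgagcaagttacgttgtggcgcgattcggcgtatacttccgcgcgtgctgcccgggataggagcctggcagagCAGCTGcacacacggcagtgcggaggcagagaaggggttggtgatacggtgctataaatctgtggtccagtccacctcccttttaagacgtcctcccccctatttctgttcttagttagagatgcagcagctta
RBFOX3 (chr17:79609112-79609411, minus strand): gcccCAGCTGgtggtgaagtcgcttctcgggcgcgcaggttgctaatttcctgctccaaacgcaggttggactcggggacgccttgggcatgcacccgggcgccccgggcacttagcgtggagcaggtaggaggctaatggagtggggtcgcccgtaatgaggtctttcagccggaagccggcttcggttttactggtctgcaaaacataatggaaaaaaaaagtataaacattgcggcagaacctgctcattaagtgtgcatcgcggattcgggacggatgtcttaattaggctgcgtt
In CELF3 the CAGCTG lies at bases 70 to 75 of the window, inside the peak and 42 bp from its summit. In ELAVL4, CATCTG begins 6 bases after the start site, and in ELAVL2, CAGCTG begins at position −84 relative to it. The window of RBFOX3 lies 1549 bp from the nearest peak. These letters were common at promoters: 44.4% of the 36 windows held either form, against 29.8% of all 35116 windows in the table. Among all windows that overlapped a peak the share was 25.3%, and it was 30.2% in the others. The general form CANNTG, which includes both, was in 27 of the 36 windows (75%) and in 68.7% of all windows. By gene, CAGCTG or CAGATG was in 6 of 12 windows of RBFOX3, 4 of 5 of RBFOX1, 4 of 7 of ELAVL4, 1 of 6 of ELAVL2 and the single window of CELF3, and in no window of NOVA1, NOVA2 or CELF4. Several windows belong to 1 gene and some overlap, so they are not independent. A match describes the sequence and does not show that NeuroD1 binds there.

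The number of peaks per gene was read against gene length, since the 10 gene bodies ranged from 16.7 kb (CELF3) to 2474 kb (RBFOX1). Counted over the gene body with 20 kb on each side, the 10 genes had 0.43 peaks per 100 kb (95% exact Poisson interval 0.26 to 0.67). The windows of all protein-coding genes, merged where they overlapped, had 0.31 peaks per 100 kb, which lies within that interval. That value is not matched for gene length. Among genes of 0.5 to 2 times a member's length, the density was 0.06 for RBFOX1 and 0.16 for RBFOX3, the longest genes here. It was 0.72 for CELF3, the shortest. A density matched for length was not computed for the set as a whole, so 0.31 does not account for length. Without RBFOX3, the other 9 genes had 9 peaks, or 0.22 per 100 kb (0.10 to 0.43). Longer genes held a peak more often but had fewer peaks per 100 kb of window. For genes under 10 kb, 23.7% had a peak, with 0.77 peaks per 100 kb, against 44.9% and 0.06 for genes over 1 Mb. For these length classes and for genes of like length, a peak counts once for each gene whose window holds it. The merged 0.31 counts each peak once. Windows of genes under 10 kb are mostly the 20 kb on each side.

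**Figure D1:**
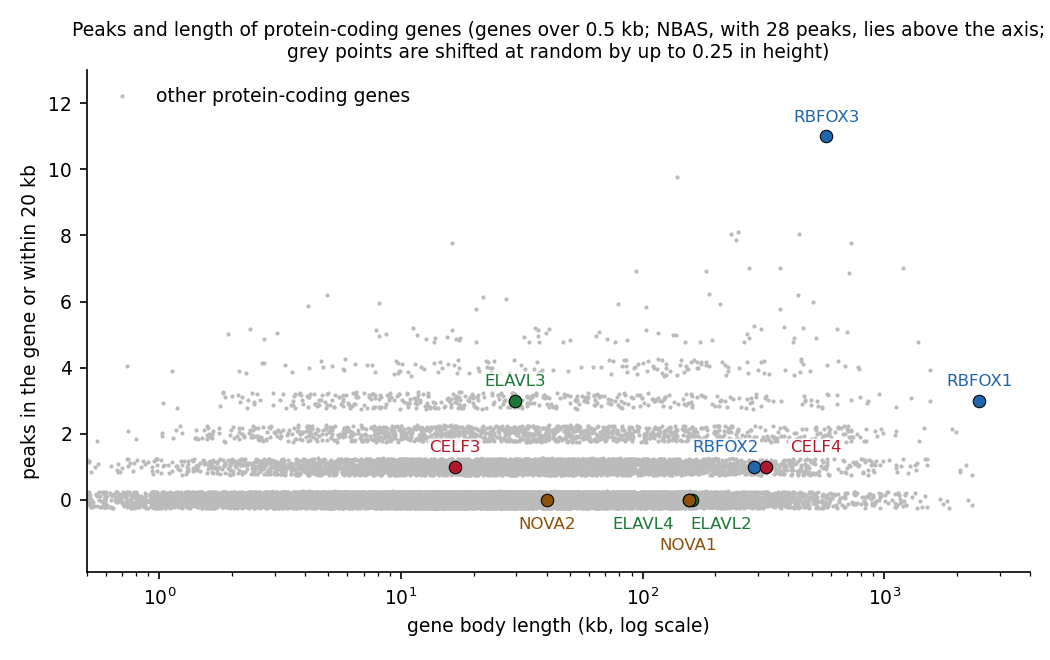
Gene body length (kb, log scale) and number of NeuroD1 peaks in the gene or within 20 kb, for protein-coding genes (grey) and the 10 RNA-binding protein genes (colors by family). RBFOX3, with 11 peaks at 576 kb, lies above all genes but NBAS, which is off the axis with 28, while RBFOX1, with 3 peaks, is longer than RBFOX3.

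By family, per 100 kb, ELAVL had 0.64 peaks (95% exact Poisson interval 0.13 to 1.88), CELF 0.48 (0.06 to 1.72), RBFOX 0.43 (0.24 to 0.72) and NOVA 0 (0 to 1.34). All 4 intervals overlapped, so no order of the families could be set at these counts. All 3 ELAVL peaks were at ELAVL3, the shortest of the 3 ELAVL genes, and 11 of the 15 RBFOX peaks were at RBFOX3. Within families, the intervals of the ELAVL genes overlapped: 0.89 to 12.6 for ELAVL3, 0 to 1.84 for ELAVL2 and 0 to 1.88 for ELAVL4. Those of the NOVA and the CELF genes overlapped as well. Overlap of 95% intervals does not show equal densities, and differences between genes were not tested. The RBFOX3 interval per 100 kb (0.89 to 3.19) did not overlap that of RBFOX1 (0.02 to 0.35), while that of RBFOX2 (0.01 to 1.69) overlapped both.

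**Figure D2:**
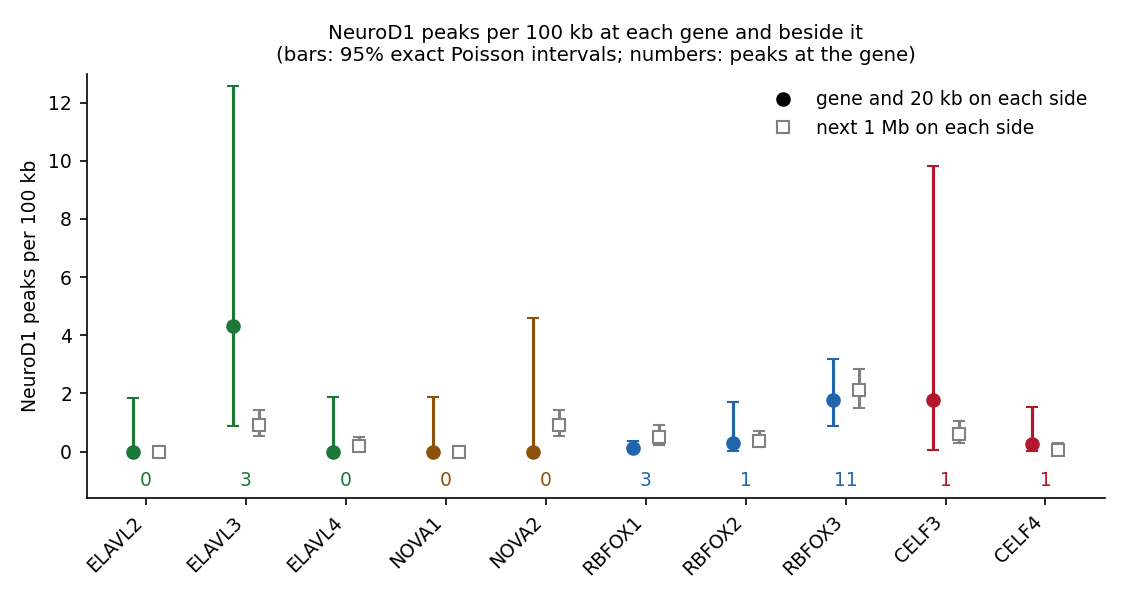
NeuroD1 peaks per 100 kb in each gene with 20 kb on each side (filled circles) and in the next 1 Mb on each side (open squares), with 95% exact Poisson intervals; the numbers count the peaks at the gene. RBFOX3 (1.79) was close to its flanks (2.10), and ELAVL2 and NOVA1 had no peak at the gene or in the flanks.

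RBFOX3, whose product is NeuN, had 11 peaks along a gene body of 576 kb on chromosome 17 (79089345 to 79665571, minus strand), or 1.79 per 100 kb. Of the 19974 protein-coding genes, 2 had 11 or more peaks within 20 kb (0.01%), namely RBFOX3 and NBAS, with 28 peaks at a gene body of 782 kb on chromosome 2. Among genes of 0.5 to 2 times its length, 45.6% had a peak, and the mean was 0.84 peaks a gene. The 2 Mb around RBFOX3 held peaks as densely as the gene itself, with 42 peaks in the 1 Mb on each side, or 2.10 per 100 kb (95% exact Poisson interval 1.51 to 2.84). These flanks were chosen after the values were seen. Over all other protein-coding windows of chromosome 17 the density was 0.88 per 100 kb, and 47.0% of the genes on this chromosome had a peak. Of the 42 flanking peaks, 19 lay on the low-coordinate side of RBFOX3 and 23 on the other side.

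The RBFOX3 peak with the most reads lay upstream of the gene, 5432 bp beyond its 5′ end (chr17:79671003-79671578). It was 576 bp wide, and 43 reads were stacked at its summit (95% exact Poisson interval 31.1 to 57.9), giving 8.63-fold enrichment and a −log10 q of 23.9 over a background of 4.0. No other gene lay within 3 kb of it. Its fold enrichment lay between those of the next peaks, which were in the 3′ part of the gene. The peak at chr17:79214954-79215265 reached 8.74-fold enrichment from 29 reads (19.4 to 41.6), with a −log10 q of 16.7. The peak at chr17:79246465-79246698 reached 8.53-fold from 28 reads (18.6 to 40.5), with a −log10 q of 15.7. Together with the peak at chr17:79203116-79203296 (fold enrichment 7.31, 23 reads, 14.6 to 34.5), they formed a group at 72.7% to 80.2% of the way from the 5′ to the 3′ end, each over 100 kb from the nearest annotated start.

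The other 7 RBFOX3 peaks had fold enrichments from 4.42 to 6.76. Near the 5′ end, the peaks at chr17:79651853-79652065 (5.02, 16 reads), chr17:79622135-79622385 (5.64, 22 reads) and chr17:79610960-79611240 (4.99, 17 reads) lay at 2.36% to 9.45% of the body. The last of them had its summit 1966 bp from an annotated start, the smallest such distance at RBFOX3. Mid-gene, the peaks at chr17:79465317-79465630 and chr17:79413744-79413999 had fold enrichments of 6.76 and 6.20, with 25 and 21 reads. At the 3′ end, the peak at chr17:79114722-79115016 was the weakest of all 20 (4.42, −log10 q 4.10, 17 reads, 9.90 to 27.2). The peak 14.2 kb past the 3′ end (chr17:79074768-79075111, 4.91, 19 reads) overlapped ENGASE, an enzyme that releases N-glycans, and its promoter window. It is thus counted at RBFOX3 by distance alone.

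**Figure D3:**
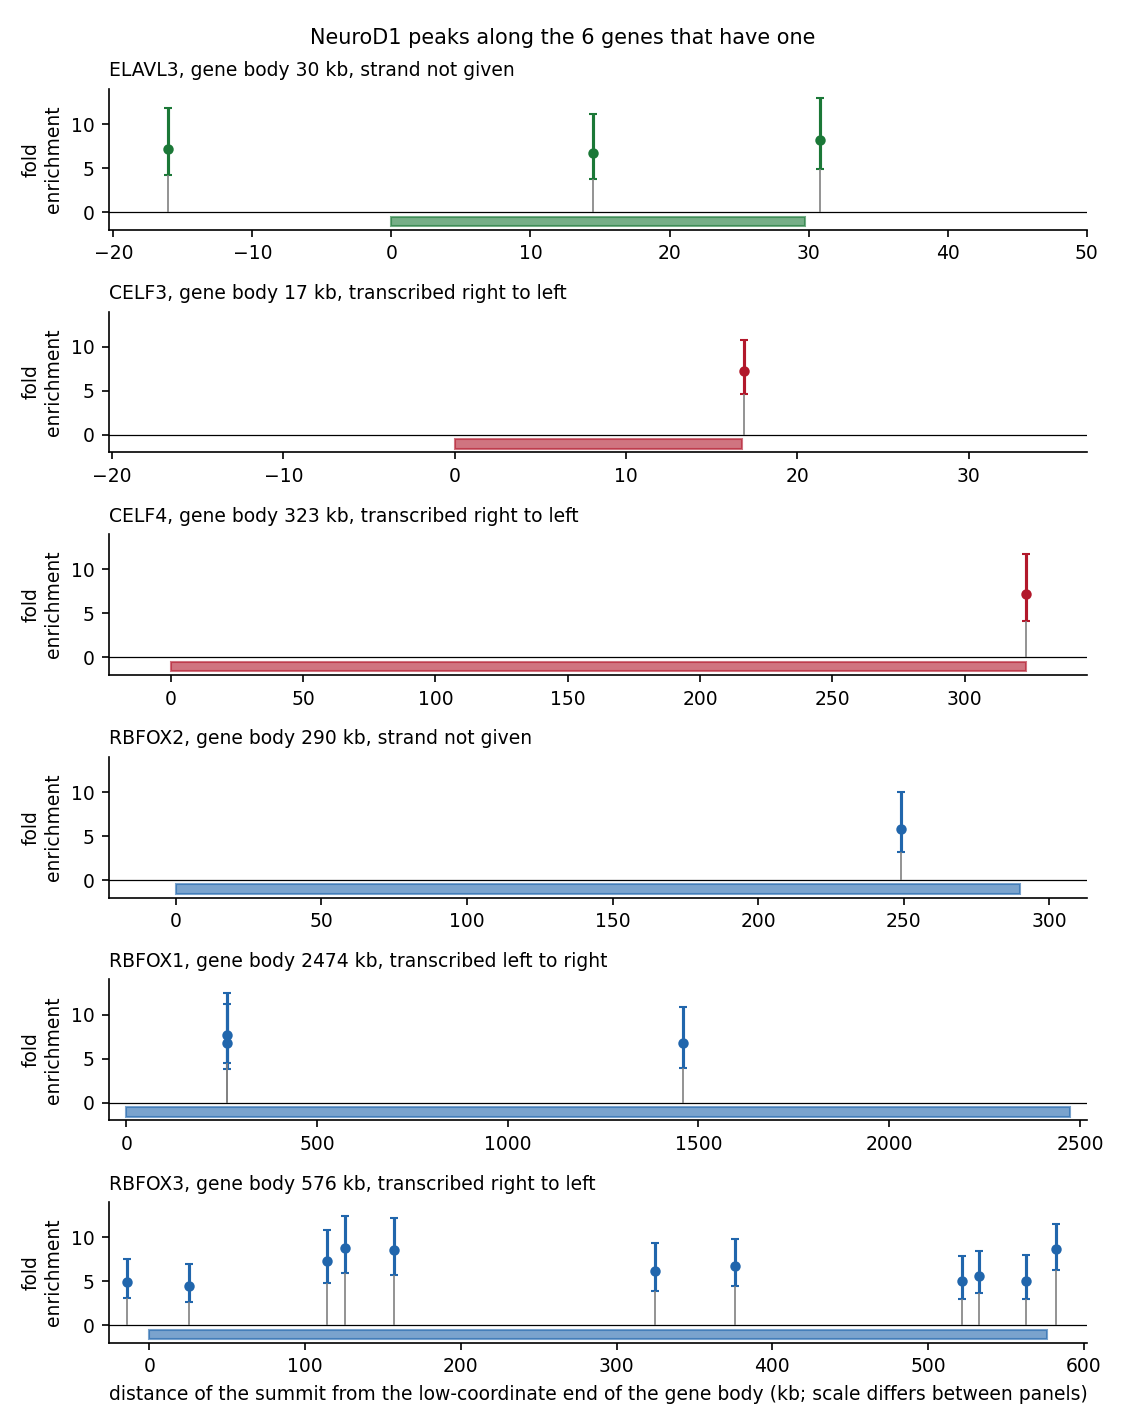
Fold enrichment of each peak (points) with the range from the 95% exact Poisson interval of its reads at fixed background (bars), against the distance of its summit from the low-coordinate end of the gene body (kb; colored bar). RBFOX3 has peaks along its whole body, RBFOX1 a close pair and a single peak, and the CELF peaks sit at the 5′ ends; scales differ between panels.

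The background at the RBFOX3 summits was higher than at the other genes. It ranged from 2.22 to 4.0 over the 11 peaks, with a median of 2.54, and from 1.04 to 2.0 over the 9 peaks of the other genes, with a median of 1.04, so the ranges did not overlap. The other 573 peaks of chromosome 17 had a median background of 2.37, against 1.20 for peaks on the other chromosomes. The RBFOX3 peaks also had more reads than those of the other members (median 22, from 16 to 43, against 14, from 11 to 21). They were wider (median 281 bp against 189 bp), while their median fold enrichment was lower (6.20 against 7.19). The other 573 peaks of chromosome 17 had medians of 22 reads, 256 bp and 6.75-fold enrichment, so higher reads and width were not particular to RBFOX3. At a background near 3, peaks were called down to a fold enrichment of 3.44, and at the lowest background down to 4.34. All 11 RBFOX3 peaks ranked better by −log10 q than by fold enrichment, with a median rank of 2677 against 4136 of 6183. The part of the raised background in the number of RBFOX3 peaks was not tested.

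**Figure D4:**
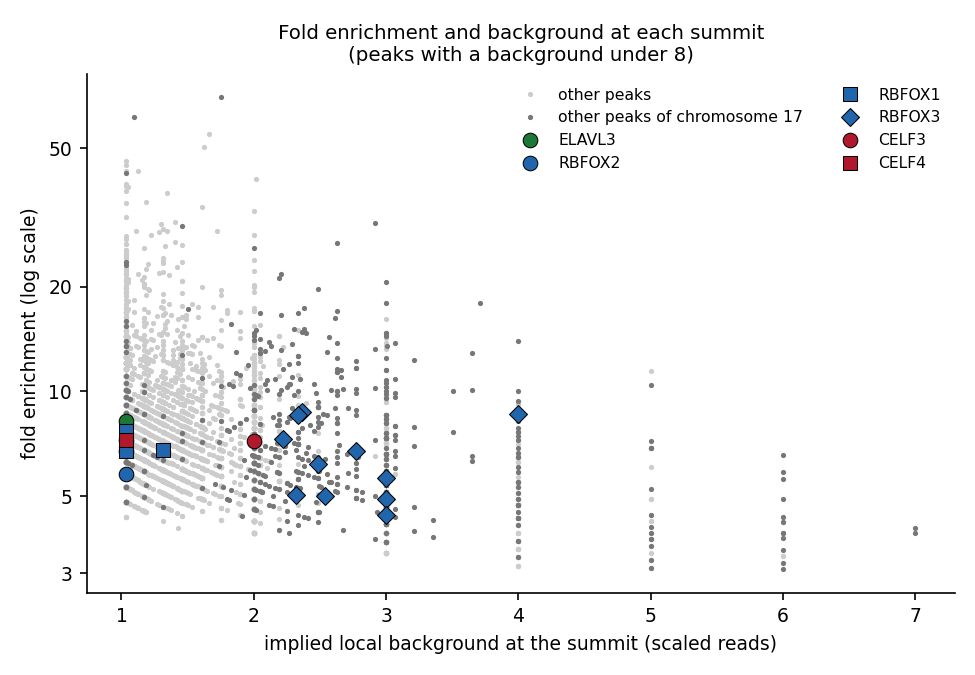
Fold enrichment (log scale) against the implied local background (scaled reads) at each summit, for the 20 peaks (colored) and all others with a background under 8 (grey, chromosome 17 darker). The RBFOX3 peaks lie among the chromosome 17 peaks at backgrounds of 2.22 to 4.0, and most other members at 1.04.

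RBFOX1, a splicing regulator encoded by a gene of 2474 kb on chromosome 16 (5239721 to 7713340, plus strand), had 3 peaks, or 0.12 per 100 kb. Of the 33 protein-coding genes of 0.5 to 2 times its length, 60.6% had a peak, with a mean of 1.06 peaks a gene and 0.06 per 100 kb. The first 2 peaks were 1246 bp apart, at 10.6% and 10.7% of the way along the body. The first (chr16:5502629-5502806) had a fold enrichment of 6.75 and 13 reads (95% exact Poisson interval 6.92 to 22.2), and the second (chr16:5504053-5504237) had 7.71 and 15 reads (8.40 to 24.7). The third (chr16:6698567-6698782) lay at 59.0% of the body, with a fold enrichment of 6.79 and 15 reads. The 3 values differed by less than their counting intervals. All 3 lay far from any start listed in the table, the nearest being 215 kb away, and no other gene lay within 3 kb of them. In the 1 Mb on each side of RBFOX1 there were 10 peaks, or 0.50 per 100 kb (0.24 to 0.92), an interval that overlaps that of the gene.

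RBFOX2, an RBFOX member that is also expressed outside the nervous system, had 1 peak in a gene body of 290 kb on chromosome 22 (35738736 to 36028824). The peak (chr22:35987613-35987758) was 146 bp wide, the narrowest of the 20, and lay inside the body, 85.8% of the way from its low-coordinate end. It rested on 11 reads (95% exact Poisson interval 5.49 to 19.7), the fewest of the 20, and was enriched 5.79-fold with a −log10 q of 4.24. Its call is lost when a −log10 q of at least 5 is required, and RBFOX2 then has no peak. Among genes of like length, 38.0% had a peak.

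ELAVL3 encodes HuC, and its gene body of 29.7 kb on chromosome 19 (11451326 to 11481046) had 3 peaks within 20 kb, or 4.30 per 100 kb (95% exact Poisson interval 0.89 to 12.6). Only 3.03% of protein-coding genes had 3 or more peaks by this rule, and 30.3% of genes of like length had at least 1. The 3 peaks were not equally close to ELAVL3. One lay in the body (chr19:11465658-11465881), with a fold enrichment of 6.75 and 13 reads (6.92 to 22.2). Another lay 1005 bp past the high-coordinate end (chr19:11482051-11482225), enriched 8.20-fold from 16 reads (9.15 to 26.0) with a −log10 q of 9.45, and it was also within 3 kb of ZNF653, a zinc finger gene. The last lay 15.9 kb past the other end (chr19:11435156-11435378), with a fold enrichment of 7.23 and 14 reads (7.65 to 23.5). It overlapped ODAD3, a gene for the docking of ciliary dynein arms, and its promoter window, and was beside PRKCSH. With 3 kb in place of 20 kb, ELAVL3 had 2 peaks. All 3 summits had the lowest background of 1.04, and their fold enrichments differed by less than the counting intervals. In the 1 Mb on each side the density was 0.90 per 100 kb (0.53 to 1.42).

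CELF3 and CELF4 each had 1 peak, and both peaks lay just upstream of the 5′ end of the gene body. The CELF3 peak (chr1:151716862-151717050) began 59 bp upstream of the annotated start, and its summit lay 137 bp upstream. It fills bases 4 to 192 of the CELF3 promoter window printed above. It was enriched 7.19-fold (−log10 q 10.1) from 21 reads (95% exact Poisson interval 13 to 32.1) over a background of 2.0. It also overlapped the body of RIIAD1, so the peak cannot be given to 1 of these genes by position. The CELF3 gene is 16.7 kb long, and 29.6% of genes of like length had a peak.

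The CELF4 peak (chr18:37566031-37566293) lay 233 bp upstream of the 5′ end of a gene body of 323 kb (37242844 to 37565798, minus strand). It was enriched 7.23-fold (−log10 q 7.26) from 14 reads (95% exact Poisson interval 7.65 to 23.5) over the lowest background of 1.04. The only CELF4 window in the promoter table lies at another start, 80.3 kb from the summit. The peak overlapped the uncharacterized lncRNA LOC124904288. Its surroundings held few other peaks, with 1 in the 1 Mb on each side (0.05 per 100 kb), and 38.7% of genes of like length had a peak. The CELF3 and CELF4 peaks had nearly the same fold enrichment, and their read intervals overlapped.

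The 4 genes without a peak differed in how far the next peak was. ELAVL2, on chromosome 9, was 3006 kb from the nearest peak, and NOVA1, on chromosome 14, was 2044 kb from it. ELAVL4, which encodes HuD, was 67.7 kb from the nearest peak, in LINC02808. NOVA2 was 21.3 kb from a peak on chromosome 19 (chr19:45995197-45995375, fold enrichment 5.89, 17 reads), just outside the limit of 20 kb, and had 2 peaks within 50 kb. With 0 peaks, the upper limits of the 95% exact Poisson interval were 1.84 peaks per 100 kb for ELAVL2, 1.88 for ELAVL4, 1.89 for NOVA1 and 4.60 for NOVA2. All 4 limits are above the 0.31 of all protein-coding windows, so a density below it could not be shown for any 1 of these genes. Among genes of like length the share with a peak was 34.7% for ELAVL2, 34.5% for ELAVL4, 34.4% for NOVA1 and 30.8% for NOVA2.

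As a set, the 20 peaks had a median fold enrichment near that of the list, but few of its high values. Their median was 6.77 (from 4.42 to 8.74), against 6.79 over all peaks, and 9 of the 20 lay above that median. Only 1 of the 20 lay above the upper quartile of 8.68, fewer than the share of all peaks that a quartile sets. The median was 6.20 for the RBFOX3 peaks and 7.19 for those of the other members. They ranked from 1487 to 5833 of 6183 by fold enrichment and from 467 to 5422 by −log10 q. By place, 14 peaks overlapped a member's gene body and 6 lay beside it. Of the 16 peaks at genes with an annotated start in the table, 1 had its summit within 1 kb of a start of the gene (CELF3), and 13 were over 10 kb away. The table lists no start at the 5′ end of the CELF4, RBFOX1 or RBFOX3 gene body, so these 13 include the CELF4 peak, 233 bp from that end, and the RBFOX3 peak 5432 bp upstream of the gene. Of the 13, 9 were at RBFOX3 and 3 at RBFOX1, whose gene bodies are the longest of the 10. These counts of place are not set beside those of all 6183 peaks, so they show no trait particular to these genes. Exons and introns were not annotated here.

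The same rule was applied to related genes. Of the family members that were not among the 10 (ELAVL1, CELF1, CELF2, CELF5 and CELF6), 1 of 5 had a peak. This was CELF5, on chromosome 19, with a peak in its body (chr19:3270329-3270500) of fold enrichment 12.4 and 27 reads (95% exact Poisson interval 17.8 to 39.3), which is above the fold enrichment of all 20 peaks. Of 28 other RNA-binding protein genes that act in neural splicing, mRNA stability or translation, 10 had a peak (35.7%, against 29.8% of all protein-coding genes), with 22 peaks in all. The highest fold enrichments were 12.3 at SRRM4, which drives neural microexons, 11.7 at MSI2, a Musashi translational regulator, and 9.16 at SRRM3, a relative of SRRM4. The SRRM3 peak lay past the 3′ end of the gene, more than 3 kb from it, and is counted there by distance alone. The 3 genes of this list on chromosome 17 (MSI2, FXR2 and IGF2BP1) all had peaks and held 12 of the 22. On that chromosome 47.0% of all protein-coding genes had a peak, and the FXR2 peaks lay more than 3 kb from the gene.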

How the data were processed

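Peaks of 1 NeuroD1 ChIP-seq library of IMR-32 cells were used. Per the labels, the authors aligned reads with BWA 0.7.17 to hg38 and called peaks with MACS2 2.2.7, while the peak names carry "macs3". Which control and which q threshold were used is not given in the sources used here. The authors deposited, for each peak, its position, the fold enrichment (a ratio to the local background), the −log10 p and −log10 q, a score (−log10 q times 10, cut to a whole number) and the fold enrichment divided by the peak width, which was not used.

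From the enrichment and the −log10 p, the pileup and local background of every peak were recovered by inverting the Poisson tail that MACS uses. For 99.98% of peaks the pileup was a whole multiple of 0.98, within 0.01 reads, and taking that unit as 1 read is an inference. This step was tested on 500 simulated peaks made with the same formula, all of which gave back their reads. The simulation checks the inversion only, and cannot show that the deposited values follow the formula. Peaks were joined to RefSeq gene bodies of GRCh38.p14 by any overlap (1 bp or more), and genes of like length were those of 0.5 to 2 times the length. Positions are counted from 1. Intervals are exact at 95%. All members and all their peaks are named, and other genes within 3 kb of them. From the lists of related genes, the 3 with the highest fold enrichment are named. Members and lists were chosen with earlier results of these data known. Alternatives were other distances (the body alone, 3 kb, 50 kb), stricter limits (5 on −log10 q or on enrichment), assignment by summit, rank by −log10 q, a length factor of 1.5, CANNTG and the set without RBFOX3. Analyses ran in scipy 1.17.1, pandas 2.3.3 and numpy 2.4.6 under Python 3.11.15, and matplotlib 3.10.9 drew the plots.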

Additional observations from a re-analysis of the deposited data

How the results depend on the processing

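The alternative without RBFOX3 was chosen after seeing the data. It moved the number of peaks from 20 to 9 and the density from 0.43 to 0.22 per 100 kb, since it removes the gene with 11 of the 20 peaks. Under the other alternatives the number of peaks ran from 14 (gene bodies alone) to 25 (50 kb), and the number of genes with a peak from 4 to 7. Gene bodies alone lose CELF3 and CELF4, and 50 kb adds NOVA2. Against these, 16.1% of protein-coding genes had a peak in the body and 40.0% within 50 kb. Ranked by −log10 q in place of fold enrichment, 6 of the 20 peaks moved by over 1.5 times in rank, and all 6 were at RBFOX3. With a length factor of 1.5, the share of genes with a peak was 49.8% for genes of like length to RBFOX3, against 45.6% before. For the other 9 members the share moved by less than its interval. The largest shift was that of RBFOX1, from 60.6% of only 33 genes to 50%. No paired analysis was possible because the ChIP has a single library. With 11 to 43 reads at a summit, the order of the 20 peaks by fold enrichment is not firm.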

Other observations

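Of the 28 other RNA-binding protein genes, MSI2 was the one with the most peaks, 8 in a gene body of 446 kb on chromosome 17, or 1.65 per 100 kb, and it was singled out after its values were seen. At RBFOX3, on the same chromosome, the density was 1.79 per 100 kb. The strongest MSI2 peak (chr17:57662877-57663296) had a fold enrichment of 11.7 and 44 reads (95% exact Poisson interval 32 to 59.1) over a background of 2.77. SRRM4, on chromosome 12, had 3 peaks. One of them (chr12:118981316-118981619) overlapped the start of the gene body, with a fold enrichment of 10.5 and 31 reads (21.1 to 44.0).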
